A study of Mus musculus with 24 samples.

Results

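The microRNA precursors mir-223, mir-142a and mir-511 (mmu-mir-223, mmu-mir-142a and mmu-mir-511), whose products mark cells of the myeloid and wider blood lineages, were followed through BV2 microglial cells and the extracellular vesicles (EVs) that these cells shed. They are 3 of the 1187 precursors in the deposited count tables and were taken by name. BV2 is an immortalised line of mouse microglia, the resident macrophages of the brain. Besides control cultures there were cultures exposed for 72 h to 1 of 3 agents. These were lipopolysaccharide at 100 ng/mL (LPS, which acts through Toll-like receptor 4), interleukin-10 at 50 ng/mL (IL-10, an anti-inflammatory cytokine) and, also at 50 ng/mL, TGF-β (transforming growth factor beta, a cytokine that sustains the microglial state). Cells and EVs of the 4 treatments form 8 groups with 3 small RNA libraries each. BV2 is 1 line, and separate cultures behind the 3 libraries of a group are not stated, so the p-values measure only how these libraries spread, which may be technical. What the controls received in place of a treatment is not stated in the labels.

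A primary microRNA transcript is cut to a hairpin in the nucleus and to a short duplex in the cytoplasm, and a strand of it then guides Argonaute to messenger RNAs, mostly through its seed (bases 2 to 8). miR-223 is characteristic of granulocytes and monocytes, where it restrains neutrophil production in mice and represses the inflammasome sensor Nlrp3. miR-142 is found across blood cell lineages and is needed in mice for normal dendritic cells and lymphocytes. miR-511 is made from an intron of Mrc1, the gene of the mannose receptor CD206, a common marker of alternatively activated macrophages. In human macrophages miR-223 has been described as a vesicle cargo.

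The mature products are shown because the 3 precursors share a lineage and not a target code. The sequences are from RefSeq (GRCm38.p6), 5′ to 3′, with the seed in capitals, and all 3 precursors matched the RefSeq table.
mmu-miR-223-3p: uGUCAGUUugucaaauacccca
mmu-miR-223-5p: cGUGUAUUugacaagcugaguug
mmu-miR-142a-3p: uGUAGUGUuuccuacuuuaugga
mmu-miR-142a-5p: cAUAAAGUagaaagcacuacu
mmu-miR-511-3p: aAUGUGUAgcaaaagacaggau
The 5 seeds are all different, and none is shared with another of the 1679 mature mouse sequences in that table. The table has no mature entry for the 5p arm of mir-511, so that arm was neither printed nor compared. The deposited counts are per precursor and do not tell the arms apart.

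The hairpins, which are the features that were counted, follow with the mature arms printed above in capitals. The 5p arm of mir-511 is not marked.
mir-223 hairpin: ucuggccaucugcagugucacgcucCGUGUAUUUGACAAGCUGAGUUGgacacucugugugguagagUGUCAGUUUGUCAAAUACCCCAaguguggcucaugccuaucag
mir-142a hairpin: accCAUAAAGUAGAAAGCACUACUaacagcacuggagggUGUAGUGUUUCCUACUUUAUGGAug
mir-511 hairpin: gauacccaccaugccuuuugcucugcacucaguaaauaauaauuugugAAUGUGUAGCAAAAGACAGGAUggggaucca
In GRCm38 the mir-223 hairpin (110 bases) lies at chrX:96242817-96242926 on the plus strand, within exon 3 of the non-coding transcript F630028O10Rik-201 in the GENCODE M21 annotation. The mir-142a hairpin (64 bases) lies at chr11:87756864-87756927 on the plus strand, in intron 1 of the non-coding host gene Mir142hg. The mir-511 hairpin (79 bases) lies at chr2:14261003-14261081 on the plus strand, in intron 5 of Mrc1, which has 30 exons. The genome build behind the counts is not given in the sources used here, so these positions are those of the reference.

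mir-142b is annotated on the minus strand across the whole mir-142a hairpin, at chr11:87756841-87756955. It had 3 counts in the 12 cell libraries together and 6 in the 12 EV libraries, where mir-142a had 11206 and 244. Whether the authors' counting used strand is not stated.

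Totals ran from 185400 to 409969 counts in the cell libraries and from 15071 to 28727 in the EV libraries. The precursor mir-6236 dominated the EV libraries, where it took 49.9 to 79.5% of the counts, against 0.574 to 1.63% in cells. Of 26 precursors listed as markers of other cell types, 7 had no count in cells, the erythroid mir-451a and mir-144 among them, and 7 had none in EVs. The others were counted in cells, led by the endothelial mir-126a with 440 counts over the 12 cell libraries, where mir-511 had 263. Next were mir-338 (oligodendrocytes) with 65 and mir-200c (epithelium) with 55. In the EV libraries together mir-144 had 37 counts and mir-451a 1, and the muscle precursor mir-1a-1 had the most of the 26, at 97. The summed share of the 26 was 0.0114 to 0.0231% of a cell library. In EVs it was 0.131 to 0.813% in controls, 0.0418 to 0.0627% after LPS, 0.0464 to 0.202% after TGF-β and 0.0714 to 0.293% after IL-10. IL-10 EV library 1 had 61.2% mir-6236, against 78.2 and 79.5% in the other IL-10 EV libraries.

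All 3 precursors were detected in every cell library, with mir-142a far ahead in counts. Its share in control cells was 0.315 ± 0.0221% (SD, n = 3), and it ranked 29th to 39th among all precursors over the 12 cell libraries. mir-223 took 0.0274 ± 0.00451% in control cells, where it ranked 140th to 153rd, and ranked 138th to 230th over the 12 cell libraries. mir-511 took 0.00794 ± 0.00181% in control cells, where it ranked 193rd to 222nd, and ranked 174th to 336th over the 12 cell libraries. These are shares of counts, which were not scaled by length. mir-142a and mir-223, the listed markers of microglia and other myeloid cells, were thus present in all cell libraries. In such bulk libraries, fewer cells with a precursor and less of it per cell cannot be told apart.

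mir-223, the myeloid precursor, was lower after LPS and much lower after TGF-β, and stayed near control after IL-10. Its counts were 74, 99 and 94 in the control cell libraries and 33, 23 and 25 after LPS. They were 89, 63 and 110 after IL-10 and 28, 26 and 15 after TGF-β. In normalised CPM, the count divided by the library total and its TMM factor (edgeR's trimmed mean scaling), control cells were at 203, 232 and 284 and LPS cells at 169, 146 and 136. IL-10 cells were at 243, 209 and 301 normalised CPM, overlapping the controls, and TGF-β cells at 99.6, 83.1 and 42.2. Every LPS and TGF-β library lay under every control library, and every TGF-β library lay under every LPS library.

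mir-223 fell to 0.632 of its control level after LPS (log2 -0.66 ± 0.24 SE, edgeR adjusted p = 0.043). After TGF-β it fell to 0.309 of control (-1.70 ± 0.25, edgeR adjusted p = 4.14e-05). After IL-10 the log2 difference was 0.08 ± 0.20 (edgeR adjusted p = 0.834), with a 95% interval from -0.39 to 0.55. The treated groups also differed among themselves: TGF-β was lower than IL-10 by the widest margin (IL-10 minus TGF-β 1.78 ± 0.25, edgeR adjusted p = 1.34e-05). LPS stood above TGF-β (1.03 ± 0.29, edgeR adjusted p = 0.00814) and below IL-10 (-0.74 ± 0.24, edgeR adjusted p = 0.0199). In order of level the groups thus ran IL-10, control, LPS and TGF-β, and the first pair did not differ beyond its spread.

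The LPS calls of mir-223 rested on single libraries. Without control library 3 the LPS difference from control was -0.55 (edgeR adjusted p = 0.119), and without LPS library 3 it was -0.62 (0.101). Against IL-10 it was -0.66 (edgeR adjusted p = 0.0672) without LPS library 3 and -0.60 (0.0774) without IL-10 library 3. Against TGF-β it was 0.71 (edgeR adjusted p = 0.0566) without TGF-β library 3, which had the lowest mir-223 of all cell libraries. The TGF-β difference from control stayed between -1.98 and -1.46 with any 1 library left out, with an edgeR adjusted p of at most 0.000705. By scaling, the LPS difference ranged from -0.66 with TMM to -1.08 with library totals and was called each time.

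mir-511, from the mannose receptor gene, had its highest level after IL-10 and its lowest after LPS. Its counts were 21, 41 and 19 in control cells and 47, 43 and 44 after IL-10. They were 11, 15 and 11 after TGF-β and 1, 4 and 6 after LPS. In normalised CPM the control libraries stood at 57.5, 95.9 and 57.4 and the IL-10 libraries at 128, 143 and 121. The TGF-β libraries stood at 39.1, 48.0 and 30.9 and the LPS libraries at 5.11, 25.4 and 32.6. The control, IL-10 and TGF-β groups did not overlap with each other, and LPS overlapped only with TGF-β. With 1 count, LPS library 1 had a share of 0.000428% and an exact 95% interval from 1.08e-05 to 0.00238%, which covers counting error only.

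mir-511 fell after LPS to 0.292 of control (log2 -1.78 ± 0.46, edgeR adjusted p = 0.00494), and the call held with each library left out, at -2.32 to -1.30. IL-10 and TGF-β shifted it to opposite sides of control without passing the threshold. After IL-10 it was at 1.82 times control (0.87 ± 0.28, edgeR adjusted p = 0.0613) and after TGF-β at 0.550 times control (-0.86 ± 0.34, edgeR adjusted p = 0.129). Without control library 2, its highest control, the IL-10 difference was 1.08 (edgeR adjusted p = 0.0443). Set against each other these treatments did differ: IL-10 was above TGF-β by 1.73 ± 0.32 (edgeR adjusted p = 0.000397) and above LPS by 2.64 on the log2 scale, as LPS minus IL-10 was -2.64 ± 0.42 (edgeR adjusted p = 2.73e-05). LPS and TGF-β differed by -0.92 ± 0.52 (edgeR adjusted p = 0.186). The order was IL-10, control, TGF-β and LPS, in which no neighbouring groups differed beyond the threshold, while all 3 pairs of groups further apart did.

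mir-142a was called in none of the 6 comparisons in cells. The control libraries held 851, 1287 and 975 counts, the LPS libraries 647, 465 and 627, the IL-10 libraries 1395, 1204 and 957 and the TGF-β libraries 808, 1006 and 984. In normalised CPM the group means were 2762 ± 374 in controls, 3221 ± 243 after LPS, 2952 ± 236 after TGF-β and 3478 ± 748 after IL-10 (SD, n = 3 each), and all groups overlapped. The log2 difference from control was 0.22 ± 0.16 for LPS, with a 95% interval from -0.14 to 0.59. It was 0.33 ± 0.16 for IL-10 (-0.03 to 0.69) and 0.10 ± 0.16 for TGF-β (-0.26 to 0.46), with edgeR adjusted p-values of 0.30, 0.181 and 0.71. A change of 2-fold lay outside each interval. The sign for LPS and TGF-β depends on scaling, at -0.18 and -0.05 with library totals. That scaling shifted the median log2 difference over the 259 precursors from 0.09 to -0.32 for LPS and from 0.09 to -0.06 for TGF-β.

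**Figure D1:**
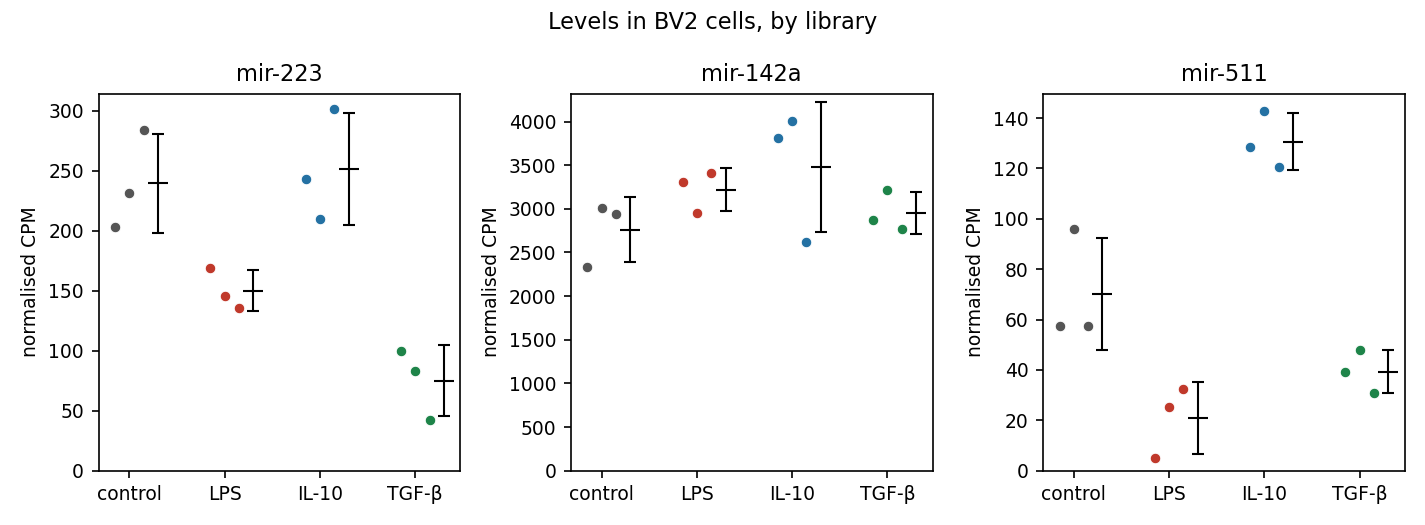
Normalised CPM (linear axes from 0) of mir-223, mir-142a and mir-511 in BV2 cells. Points are libraries, 3 per group, and the bar beside them is the mean with its SD. mir-223 is lowest after TGF-β, at 42.2 to 99.6, mir-511 is lowest after LPS, at 5.11 to 32.6, and the mir-142a groups overlap.

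Against the rest of the table, 2 of the 3 precursors were called after LPS, 1 after TGF-β and 0 after IL-10. Of the 259 precursors tested in cells, 32% were called after LPS, 6.56% after TGF-β and 7.72% after IL-10, by edgeR. For IL-10, 67 precursors had an unadjusted p under 0.05, mir-511 and mir-142a among them, and DESeq2 called 20 as edgeR did. Between treatments 2 of 3 were called for LPS against IL-10, where 44.4% of all were, 1 of 3 for LPS against TGF-β (32%), and 2 of 3 for IL-10 against TGF-β (14.7%). Groups without overlap were common in the table: 47.5% of precursors had them for LPS against control, 32% for IL-10 and 25.9% for TGF-β, where 2, 1 and 2 of the 3 did. Between treatments the shares were 51%, 40.9% and 22.8% for LPS against IL-10, LPS against TGF-β and IL-10 against TGF-β, where 2, 1 and 2 of the 3 did. A list of 20 other precursors of blood-cell lineages and macrophages, chosen with earlier results of these data known, had 16 tested members. After LPS 6 of them were called higher and 5 lower, where 54 and 29 of all 259 were. Their median log2 difference was 0.11, and that of all precursors 0.09. After IL-10 5 were called higher and 1 lower (14 and 6 of the 259), with a median of 0.37 (all 0.05). After TGF-β 0 were called higher and 2 lower (9 and 8 of the 259), with a median of 0.21 (all 0.09). The 3 treatments were compared with the same control libraries, so their differences from control are not independent.

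**Figure D2:**
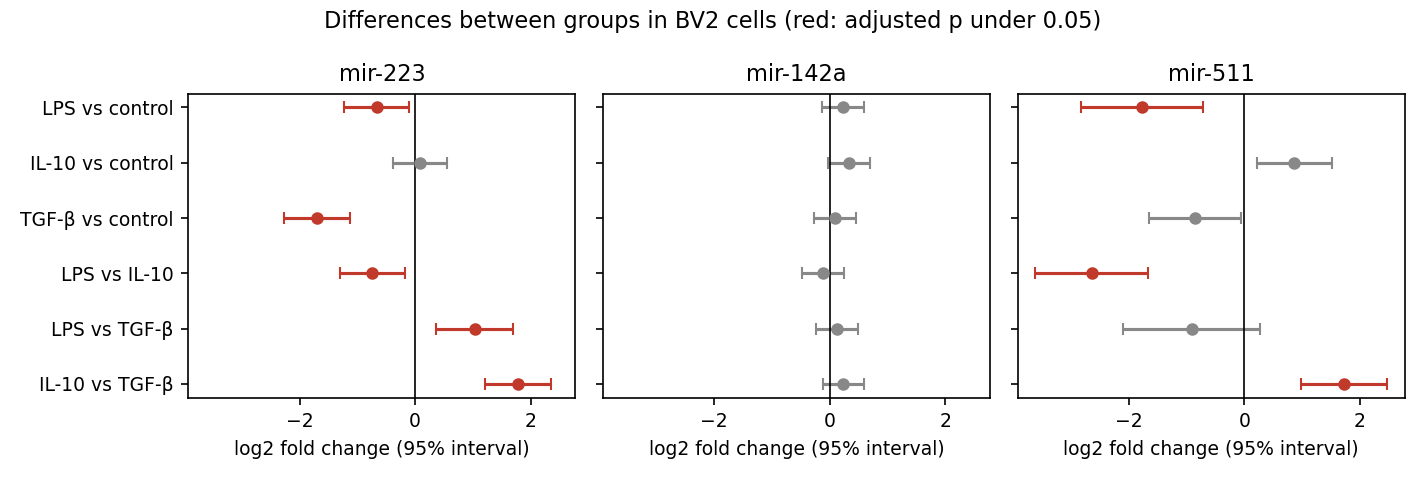
Log2 fold change between groups of BV2 cells, first group minus second, for mir-223, mir-142a and mir-511. Points are edgeR estimates and bars their 95% intervals, red where the adjusted p over 259 precursors is under 0.05. mir-223 has 5 red comparisons, mir-511 has 3 and mir-142a has 0.

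The counts of mir-223 and mir-511 were also set against mir-142a in the same library, a ratio that no library total or scaling factor can move. Per 100 counts of mir-142a, control cells held 8.68 ± 0.975 counts of mir-223 (SD, n = 3). LPS cells held 4.68 ± 0.603, IL-10 cells 7.70 ± 3.33 and TGF-β cells 2.53 ± 0.972. For mir-511 the values were 2.53 ± 0.621 in controls, 0.657 ± 0.438 after LPS, 1.32 ± 0.190 after TGF-β and 3.85 ± 0.659 after IL-10. The IL-10 ratios of mir-223 spread most, since library 3 had the highest mir-223 and the lowest mir-142a of that group.

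On the log2 scale, with 0.5 counts added, the mir-223 ratio differed from control by -0.88 after LPS, -1.83 after TGF-β and -0.25 after IL-10. The mir-511 ratio differed by -2.04, -0.89 and 0.60 in the same order. All libraries lay apart from the controls in these comparisons, except for mir-223 after IL-10. The two-sided exact permutation p was 0.1 for each group that lay apart, the smallest that 3 against 3 libraries allow, and 0.5 for mir-223 after IL-10. The directions of the scaled levels were thus also found in the ratios, apart from mir-223 after IL-10, where both differences were small and of opposite sign.

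**Figure D3:**
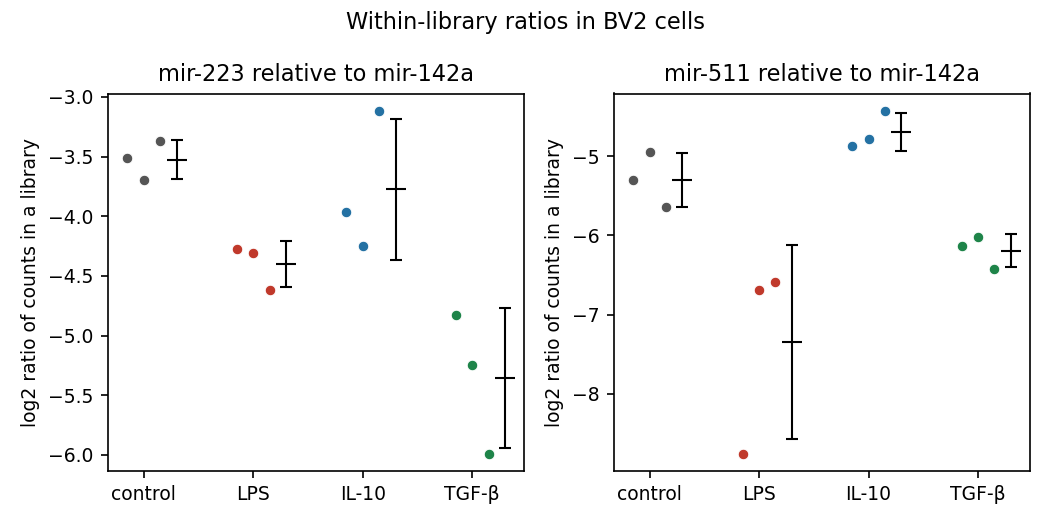
Log2 ratio of counts of mir-223 (left) and mir-511 (right) to counts of mir-142a within each library of BV2 cells, with 0.5 counts added to each. Points are libraries, 3 per group, with the mean and SD beside them. TGF-β has the lowest mir-223 ratio (mean -5.35) and LPS the lowest mir-511 ratio (mean -7.35), where library 1, with 1 count, is at -8.75.

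Likeness to each precursor was measured as the root mean square difference in log2 CPM over the 12 cell libraries, after centring each precursor on its own mean. Nearest to mir-223 was mir-503 at 0.41, followed by mir-1981 at 0.43 and mir-125b-2 at 0.48, where the median precursor was at 0.82. Their log2 differences from control were -1.24, -0.96 and -1.06 after LPS and -1.40, -1.15 and -1.29 after TGF-β, of which only those of mir-503 were called. mir-125b-2 shares its mature product with mir-125b-1, so its counts are uncertain. Nearest to mir-511 were mir-351 (0.45), mir-450b (0.64) and mir-503 (0.67), with a median of 1.07. After IL-10 they stood at 0.15, 0.65 and -0.13, none of them called, and mir-511 itself was at 0.87. Nearest to mir-142a were mir-30e (0.176), let-7e (0.178) and let-7f-1 (0.179), with a median of 0.378. These values come from libraries that share depth and composition and describe the 12 libraries.

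In the EVs the 3 precursors parted: mir-142a was counted in all 12 EV libraries, and mir-223 and mir-511 in none. The 12 EV libraries hold 224835 counts together, so a count of 0 allows a share of up to 0.00133% of the EV counts for either precursor. Over the cells mir-223 had a share of 0.0190% (679 counts) and mir-511 of 0.00735% (263 counts). Matched by treatment and summed over all 4, mir-223 was at least 13.2-fold lower in EVs than in cells and mir-511 at least 4.55-fold lower, with a floor of 3 counts over the 12 EV libraries. Because mir-6236 fills most of an EV library, the same bounds were computed among the counts outside mir-6236, 72595 in the EVs, and were then 4.09-fold and 1.30-fold. The bounds cover counting error only. EV libraries are a measure of relative content, so less of a precursor and more of everything else cannot be told apart.

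Had the EVs held mir-223 at the share it has in the cells of the same treatment, the 12 libraries would hold 39.5 counts, or 12.3 if the share is taken outside mir-6236. At the ratio of mir-223 to mir-142a in the cells they would hold 12.8. All 3 figures lie above the floor of 3 counts. By treatment, the share outside mir-6236 corresponds to 3.47 counts in control EVs, 4.44 after LPS, 0.953 after TGF-β and 3.40 after IL-10, so that in the TGF-β EVs alone the value lies under the floor. For mir-511 the totals are 13.7, 3.90 and 3.27 counts, so only the first is well above the floor, and at this depth a lower content in EVs than in cells was not detectable outside mir-6236 in any one treatment.

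mir-223 was the 163rd most abundant precursor in cells by mean share, and it was the only one of these 163 with no count in any EV library. The 40 precursors nearest to it in abundance, 20 on either side, had 1 to 186 counts over the EV libraries, with a median of 9.5, and 0 of them were at 0. Around mir-511, 224th in cells, 3 of 40 such neighbours were at 0 and the median was 7. No test of EVs against cells is given for either, since both passed the filter on low counts through the cells alone and all EV groups are at 0.

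**Figure D4:**
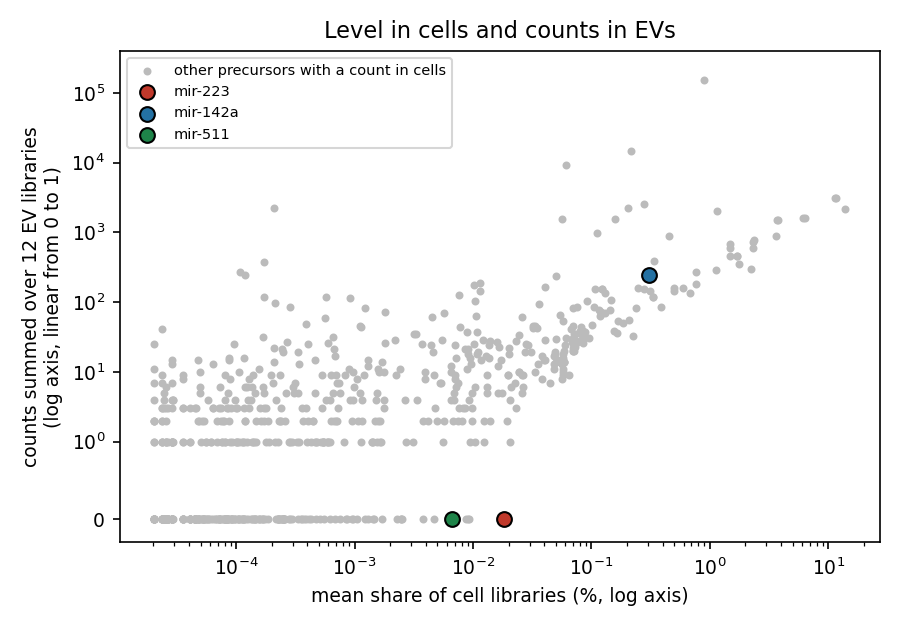
Counts summed over the 12 EV libraries (log axis, linear from 0 to 1) against the mean share of the 12 cell libraries (percent, log axis), with 1 point per precursor that had a count in cells. mir-223 and mir-511 lie on the line at 0, mir-142a is at 244 counts, and no precursor to the right of mir-223 is at 0.

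mir-142a was present in the EVs of every treatment, with its highest counts after LPS. The control EV libraries held 10, 6 and 20 counts, the LPS libraries 47, 30 and 76, the IL-10 libraries 10, 8 and 8, and the TGF-β libraries 5, 8 and 16. As a share of all EV counts this was 0.0704 ± 0.0372% in controls, 0.198 ± 0.0947% after LPS, 0.0622 ± 0.0395% after TGF-β and 0.0532 ± 0.00279% after IL-10 (SD, n = 3 each). LPS library 2, at 0.104%, lay below control library 3, at 0.111%, so the LPS and control shares overlapped. LPS EVs also had less mir-6236, at 49.9 to 65.5% of counts where controls had 73.7 to 75.8%. Outside mir-6236 the mir-142a share was 0.464 ± 0.196% after LPS and 0.273 ± 0.138% in controls, 0.212 ± 0.0580% after IL-10 and 0.225 ± 0.120% after TGF-β.

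None of these differences in the EVs was called. With TMM factors mir-142a differed from control by 0.46 ± 0.64 after LPS (edgeR adjusted p = 0.655), by -0.19 ± 0.67 after IL-10 (0.96) and by 0.11 ± 0.67 after TGF-β (0.952). The LPS interval reached from -1.02 to 1.94, so that a rise of 2-fold or more could not be told from no change at this depth. With library totals the LPS difference was 1.48 (edgeR adjusted p = 0.153), and the median over the 71 precursors went from 0.02 to 1.10. In the same EVs the summed share of the markers of other cell types was lower after LPS than in controls, as given above, and its part in these values was not tested. Only 71 precursors were tested in EVs, of which 18.3% were called after LPS and 4.23% after TGF-β. After IL-10 edgeR called 0 and DESeq2 0, with 5 at an unadjusted p under 0.05.

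Whether mir-142a was richer or poorer in EVs than in cells depended on the scaling. As a share of all counts it was lower in EVs, at 36 counts in control EVs where the share in control cells would give 157. Outside mir-6236 the same comparison was 36 against 40.5 counts in controls, 153 against 95.4 after LPS, 29 against 38.7 after TGF-β and 26 against 46.1 after IL-10. The edgeR estimate averaged over the 4 treatments was 0.08 ± 0.19 with TMM (adjusted p = 0.76), 0.89 with DESeq2's size factors (5.84e-04) and -1.90 with library totals (1.24e-08). With TMM, 60.7% of the 280 precursors tested were called. The TMM estimate turned lower and was called without any 1 of 4 EV libraries: -0.58 without control 3 (edgeR adjusted p = 0.0261), -0.50 without LPS 1 (0.0498), -0.51 without IL-10 2 (0.0485) and -0.62 without TGF-β 3 (0.0143). The median over all precursors tested moved along, at -0.83, -0.07 and -2.78. Relative to that median mir-142a was higher in EVs under all 3 scalings, by a description that carries no test. The 280 include precursors that passed the filter through the deeper cell libraries alone, mir-223 and mir-511 with no EV count among them, and 71 passed in the EV fit. A change of scaling moves the estimate and the median together. The position above the median therefore does not show that EVs were richer in mir-142a.

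By treatment, the TMM estimate of EVs minus cells for mir-142a was 0.00 ± 0.37 in controls, 0.68 ± 0.32 after LPS, 0.18 ± 0.39 after TGF-β and -0.54 ± 0.40 after IL-10, none called (edgeR adjusted p = 0.994, 0.105, 0.729 and 0.254). Other settings gave calls in both directions. DESeq2's Wald test called mir-142a higher in EVs in controls (adjusted p = 0.0329), after LPS (0.000361) and after TGF-β (0.00139). With library totals edgeR called it lower in controls (adjusted p = 0.000169), after IL-10 (2.52e-05) and after TGF-β (9.45e-05). Of the precursors tested, 38.6%, 30.7%, 43.2% and 43.2% were called. The LPS effect in EVs exceeded that in cells by 0.68 ± 0.49 (edgeR adjusted p = 0.371), where 6.07% of precursors were called. It was 1.66 with library totals (edgeR adjusted p = 0.0495), where the median over all precursors moved from 0.38 to 1.16. For IL-10 and TGF-β the differences of effects were -0.54 ± 0.54 and 0.19 ± 0.53 (edgeR adjusted p = 0.768 and 1.0). edgeR called 0 of the 280 precursors in either, DESeq2 called 8 and 12, and 36 and 30 had an unadjusted p under 0.05.

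**Figure D5:**
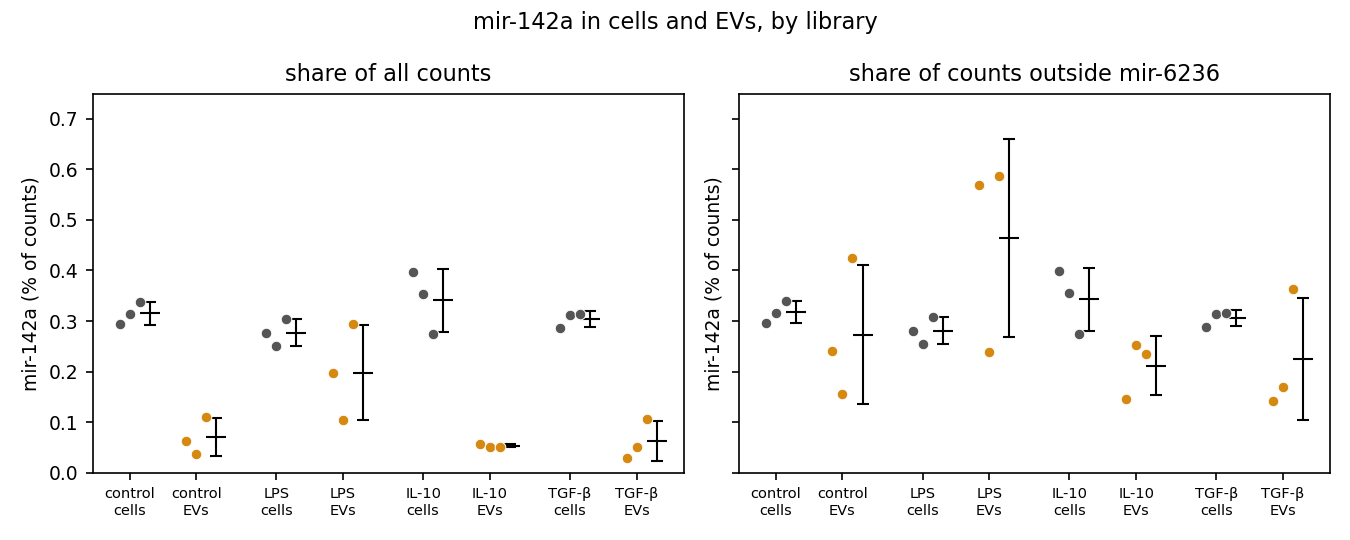
Share of mir-142a in libraries of BV2 cells (grey) and EVs (orange), as percent of all counts (left) and of counts outside mir-6236 (right), for control, LPS, IL-10 and TGF-β. Points are libraries, 3 per group, with the mean and SD beside them. EV shares of all counts are at 0.0299 to 0.294% and lie mostly under those of the cells. Outside mir-6236 the EV libraries lie on both sides of the cells in controls, after LPS (1 below, 2 above) and after TGF-β, and all lie below them after IL-10.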

How the data were processed

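The deposited tables give whole-number read counts per microRNA precursor, which the authors did not normalize, judged from the values. From the 8 deposited count tables, 6 were used, and the other 2 were copies of a used one. Control columns shared by tables were identical and were used once. Per the labels' protocols, RNA came from miRNeasy columns (20 µL of EVs) and SMARTer smRNA-seq libraries with 18 PCR cycles. DESeq2 is named, without a version, in the submitters' processing notes, while no aligner, annotation or build was found in the labels or the file headers. Columns name the group but no sample title, so library numbers are those of the columns and pair nothing.

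Counts were tested with edgeR 4.0.16 (R 4.3.3) by the two-sided quasi-likelihood test, with TMM factors. Low precursors were removed by filterByExpr (minimum count 10), and p-values were adjusted by Benjamini-Hochberg over all precursors tested in a comparison (17 comparisons). An adjusted p under 0.05 was called. Cells and EVs were each fitted with 12 libraries (8 residual degrees of freedom), and EVs against cells with 24 (16). SE come from the F statistic, and 95% intervals from the SE and the residual degrees of freedom. The test adds prior degrees of freedom, so the intervals are wider than its p-values imply. For mir-142a after IL-10 in cells the interval includes 0, while the unadjusted edgeR p was 0.0448. Only mir-142a passed the EV filter. mir-223 and mir-511 had no count in EVs, so no test against cells is given for them, and their fold differences are bounds: the counts at the cells' share of the same treatment, summed, over 3 counts. The procedure was tested on simulated data. Alternatives were DESeq2's size factors and DESeq2 1.42.0, library totals, no filter, a mean of at least 50 counts, a robust prior, only the groups compared, each library left out, and mir-6236 and mir-6240 left out. The precursors named as most alike were the 3 nearest of each member. The members, the marker list and the blood-cell list were chosen with earlier results of these data known.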

Additional observations from a re-analysis of the deposited data

How the results depend on the processing

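In cells, the calls of mir-223 for TGF-β against control and against IL-10, and of mir-511 for LPS against control and against IL-10 and for IL-10 against TGF-β, kept direction and call under every alternative that gave a value. With 1 library left out, the log2 difference of mir-223 ranged from -0.82 to -0.55 for LPS against control, -0.86 to -0.60 for LPS against IL-10, 0.71 to 1.29 for LPS against TGF-β and -0.087 to 0.18 for IL-10 against control. That of mir-511 for IL-10 against control ranged from 0.70 to 1.08, and that of mir-142a for TGF-β against control from -0.019 to 0.11. With library totals mir-142a changed sign for LPS against control (-0.18), TGF-β against control (-0.054) and LPS against TGF-β (-0.13), as did mir-223 for IL-10 against control (-0.12). Without a filter mir-223 for IL-10 against control (-0.011) and mir-142a for TGF-β against control (-0.0088) changed sign. None of these reversed values was called, and the cause was not tested. The ratios to mir-142a kept their direction in all 84 alternatives.

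In EVs mir-142a for TGF-β against control was -0.19 with library totals and -0.0091 without mir-6236 and mir-6240, and ranged from -0.50 to 0.53 with 1 library left out. For IL-10 against control that range was -0.48 to 0.17.

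EVs minus cells for mir-142a (control, LPS, IL-10, TGF-β and their mean) was 0.83, 1.00, 0.52, 1.23 and 0.89 with DESeq2 size factors, 0.84, 1.00, 0.47, 1.23 and 0.88 with DESeq2's Wald test and 0.88, 0.99, 0.23, 1.20 and 0.83 with a mean of at least 50 counts. With library totals it was -2.15, -0.49, -2.68, -2.30 and -1.90. Without a filter it was -0.71 for TGF-β and -0.41 for the mean, without mir-6236 and mir-6240 0.11 for control and -0.081 for TGF-β, and with only the groups compared 0.31 for control and 0.78 for LPS. Called as higher in EVs were LPS, TGF-β and the mean with DESeq2 size factors and with a mean of at least 50 counts, these and control with DESeq2's Wald test, and LPS with only the groups compared. Called as lower were all but LPS with library totals. With 1 library left out it ranged from -1.07 to 0.47, 0.23 to 0.95, -1.20 to 0.065, -1.22 to 0.56 and -0.62 to 0.43. The difference between the LPS effects in EVs and cells was 1.66 with library totals. That for TGF-β was -0.15 with library totals, -0.45 without a filter, -0.19 without mir-6236 and mir-6240, -0.013 with only the groups compared and -0.60 to 0.47 with 1 library left out, and that for IL-10 -0.82 to 0.070.

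Over all precursors, the 83 called in cells for LPS against control became 131 with library totals, and the 20 for IL-10 became 5 to 21 with 1 library left out (5 without control library 1, 13 without control 3, 7 without IL-10 library 2 and 9 without IL-10 library 3). In EVs the 13 called for LPS became 4 to 17 under other settings and 0 to 11 with 1 library left out, and the 3 for TGF-β 0 to 5. For EVs against cells the 108, 86, 121 and 121 called by treatment ranged over 19 to 225, 41 to 152, 26 to 219 and 30 to 215, and the 170 for the mean over 57 to 248. The 17 for the difference between LPS effects ranged over 13 to 63.

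A mean of at least 50 counts gave no value for mir-511 in cells or mir-142a in EVs, and DESeq2 no adjusted p for mir-511 for IL-10 against control. No paired analysis was possible because the labels number no replicates. EV depth limits all statements on mir-223 and mir-511 in EVs.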
